A study of Schizosaccharomyces pombe with 12 samples.

Results

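Altered forms of the Dicer gene of fission yeast, Schizosaccharomyces pombe, were compared: the 3 tiling arrays of the allele dcr1-SHSS and the 3 of the allele dcr1ΔC33, 6 of the 12 arrays of the study. The arrays were chosen by their titles, and all 5483 features of the deposited table were compared. The study held 4 strains with 3 biological replicates each: dcr1-SHSS (strain SPB776), dcr1ΔC33 (SPB287), dcr1Δ (SPB81), which carries a deletion of dcr1, and wild type (SPB80). Cultures were harvested while growing, at an optical density (OD600) of 0.5, and total RNA was labelled with biotin as double-stranded target. The labels give the alleles by name only. From general knowledge, the first name stands for exchanged residues in a zinc-binding motif of the Dicer protein and the second for a shortened C-terminus. The sources used here do not say what else the strains carry, such as mating types or marker alleles, or whether each strain is a single isolate.

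Dicer cuts double-stranded RNA into small interfering RNAs. In fission yeast these guide the RNA-induced transcriptional silencing complex to transcripts of the centromeric repeats. There heterochromatin is built and the repeats are kept quiet, so that strains without Dicer accumulate RNA from them. By its title the study is about a domain of Dicer that binds double-stranded RNA, about zinc, and about how the protein is kept in the nucleus. The motif and the C-terminus belong to the same region of the protein, and the comparison asks whether changing either leaves the cell with the same RNA profile.

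Both alleles kept their dcr1 RNA. The level of dcr1 (SPCC188.13c), on the log2 scale of the deposited table, was 10.67, 10.70 and 10.64 on the dcr1-SHSS arrays, 10.86, 10.89 and 10.85 on the dcr1ΔC33 arrays, 5.52, 5.80 and 5.37 on the dcr1Δ arrays, and 10.49, 10.57 and 10.60 on the wild-type arrays. The deletion strain was the only low one, and its mean of 5.56 served as a guide to background. All 3 dcr1-SHSS arrays lay below all 3 dcr1ΔC33 arrays, by a log2 difference of -0.20 ± 0.09 (SE, n = 3 per strain), which did not pass the threshold (adjusted p = 0.311; 95% interval -0.39 to -0.005 before adjustment). Against wild type dcr1 was higher in dcr1ΔC33 (0.31 ± 0.09, adjusted p = 0.02). This call was lost without dcr1ΔC33 array 2 or wild-type array 1 (adjusted p = 0.058 and 0.0628). In dcr1-SHSS the difference from wild type did not pass (0.12 ± 0.09, adjusted p = 0.304). Throughout, a feature passed when its adjusted p in limma's moderated test lay under 0.05 after Benjamini-Hochberg adjustment over all 5483 features.

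The arrays of the 2 alleles were about as far from each other as replicate arrays of 1 strain. The median absolute log2 difference over all features was 0.0853 for the 9 pairs of a dcr1-SHSS and a dcr1ΔC33 array, with a range of 0.0751 to 0.0958. Pairs of replicates had medians of 0.0757 within dcr1-SHSS, 0.0574 within dcr1ΔC33, 0.0789 within dcr1Δ and 0.0844 within wild type. The range between the alleles thus overlapped those within dcr1-SHSS (0.0671 to 0.0817), dcr1Δ and wild type (0.0733 to 0.0896), while every pair within dcr1ΔC33 (0.057 to 0.0675) was closer. Both alleles were farther from wild type, at medians of 0.15 for dcr1-SHSS (0.137 to 0.169) and 0.132 for dcr1ΔC33 (0.121 to 0.153), with no overlap with the distances between the alleles. Distances to the deletion strain were 0.13 for dcr1-SHSS (0.0976 to 0.151) and 0.1 for dcr1ΔC33 (0.0783 to 0.116). The deletion strain itself lay 0.0946 from wild type (0.0672 to 0.108). That range also overlapped those within dcr1-SHSS and wild type, so an overlap on this measure does not show that 2 strains are alike. Pairs that share an array are not independent, so these distances are a description without a test.

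**Figure D1:**
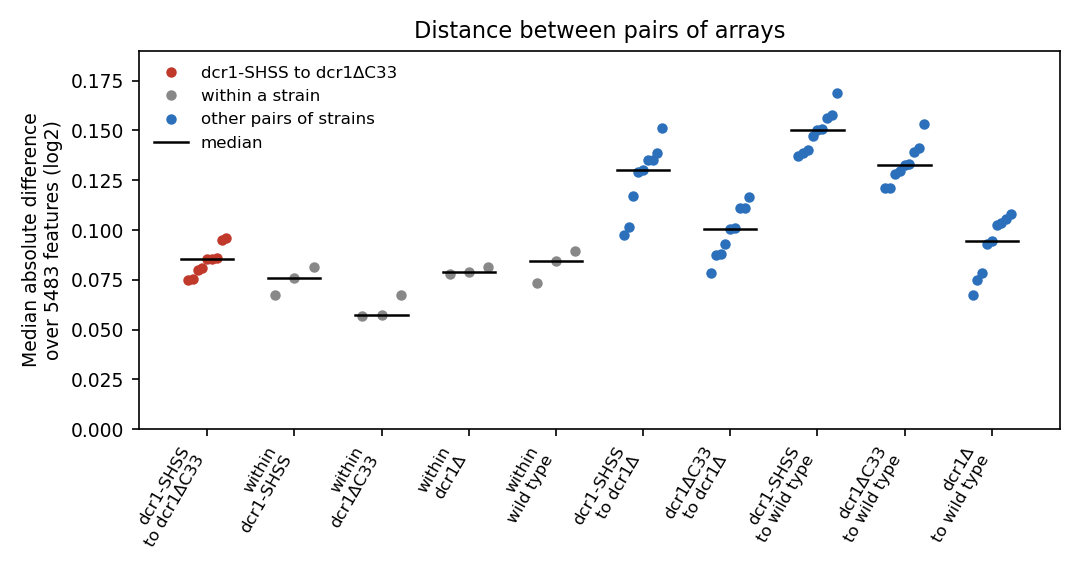
Each point is a pair of arrays, and its height is the median absolute difference between them over 5483 features (log2). Pairs of a dcr1-SHSS and a dcr1ΔC33 array lie between 0.0751 and 0.0958, below all pairs of either allele with wild type, and lines mark the median of each kind of pair.

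Compared directly, 8 of 5483 features passed between dcr1-SHSS and dcr1ΔC33, or 0.146% of those tested, 3 higher and 5 lower in dcr1-SHSS. Only 1 passed without dcr1-SHSS array 2 or without dcr1ΔC33 array 1, and 2 without dcr1ΔC33 array 3. At an unadjusted p under 0.05 there were 847 (15.4%), with 248 higher and 599 lower, and 680 after quantile normalization. This is more than a threshold of 0.05 would let through if no feature differed. The 8 calls therefore need not be the full extent of the parting. Against wild type 2234 features passed in dcr1-SHSS (40.7%), of which 822 rose (15%) and 1412 fell (25.8%). In dcr1ΔC33 1771 passed against wild type (32.3%), with 807 higher (14.7%) and 964 lower (17.6%); without dcr1ΔC33 array 3 there were 1178. These comparisons share the wild-type arrays, so their counts are given side by side only. Most were small: 116 features rose and 5 fell by at least 2-fold in dcr1-SHSS, against 108 and 2 in dcr1ΔC33. The median absolute log2 difference was 0.0624 between the alleles. Against wild type it was 0.137 for dcr1-SHSS, 0.119 for dcr1ΔC33 and 0.0644 for dcr1Δ, so the alleles differed about as much as dcr1Δ and wild type.

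A feature that missed the threshold is not thereby alike, so the intervals of the direct difference were counted. For 5225 features, 95.3% of all, the whole 95% interval of dcr1-SHSS minus dcr1ΔC33 lay within 1.5-fold in either direction, and for 4239 (77.3%) it lay within 0.32 log2 units. Of the others, 254 neither lay within 1.5-fold nor passed the test, so that their likeness was not resolved with 3 arrays a strain. Against wild type the interval lay within 1.5-fold for 4820 features in dcr1-SHSS (87.9%) and 4874 in dcr1ΔC33 (88.9%).

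Dim features held 177 of the 258 intervals that reached beyond 1.5-fold. This was counted in quintiles of the mean level: 177 of 1097 features in the dimmest, with levels up to 9.46, against 9 of 1097 in the brightest. The median difference between the alleles also moved with level: it was -0.11 in the dimmest quintile, then -0.06, -0.03 and -0.003, and 0.02 in the brightest. After quantile normalization the 5 medians lay between -0.006 and -0.002, and the unadjusted calls divided into 307 higher and 373 lower in place of 248 and 599. The excess of features lower in dcr1-SHSS therefore moved with the scaling of the arrays.

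**Figure D2:**
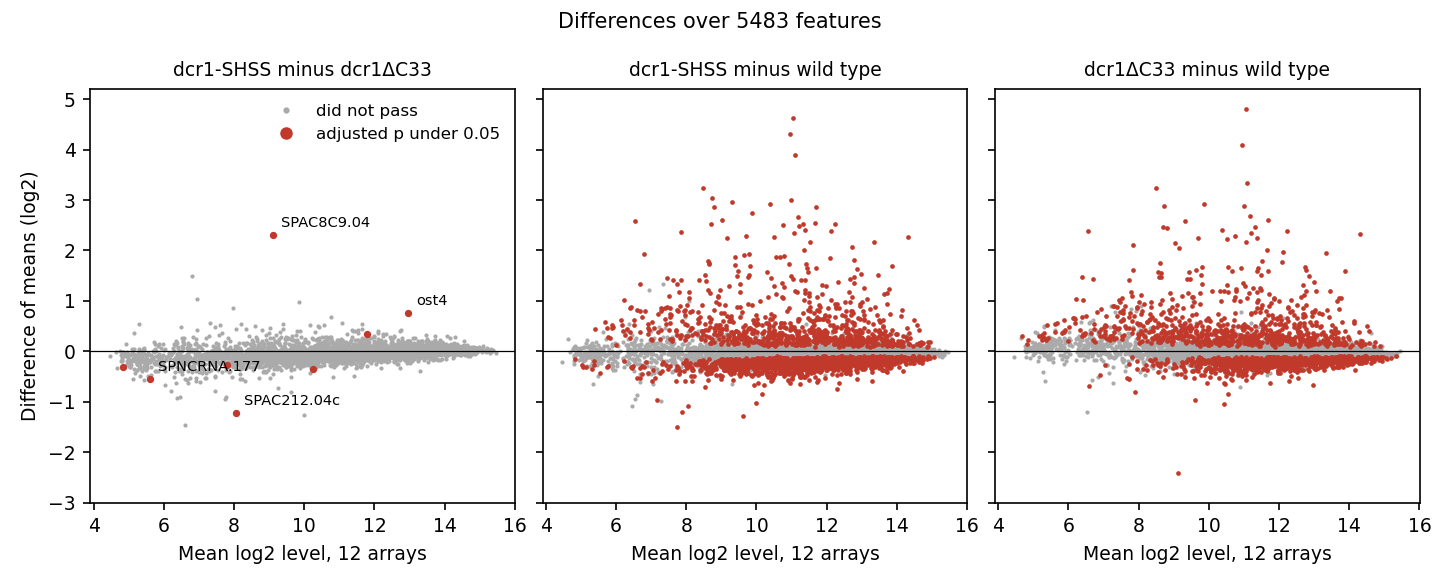
The difference of means (log2, vertical axis) is plotted against the mean log2 level over 12 arrays for each of 5483 features, from left to right for dcr1-SHSS minus dcr1ΔC33, dcr1-SHSS minus wild type and dcr1ΔC33 minus wild type. Red points passed the threshold: 8 in the left panel, 2234 in the middle and 1771 on the right, and the left cloud widens towards dim features.

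The widest parting of the alleles was at SPAC8C9.04, a protein-coding gene of chromosome I whose product the sources used here do not name. Its log2 level was 9.71, 9.51 and 9.75 in dcr1-SHSS, 7.30, 7.23 and 7.51 in dcr1ΔC33, 9.83, 9.55 and 9.72 in dcr1Δ, and 9.81, 9.68 and 9.78 in wild type. The 3 dcr1ΔC33 arrays stood alone at the low level, and dcr1-SHSS, dcr1Δ and wild type overlapped. The direct difference was 2.31 ± 0.09 (SE, n = 3 per strain; 4.95-fold higher in dcr1-SHSS, adjusted p = 7.19e-07). Against wild type the gene fell by 2.41 on the log2 scale in dcr1ΔC33 (adjusted p = 1.17e-07) and differed by -0.10 ± 0.09 in dcr1-SHSS (adjusted p = 0.421). Its neighbours were level between the alleles: cgs1, the regulatory subunit gene of protein kinase A, differed by -0.01 and dtd1 by -0.03, and neither passed. The call held in all 11 alternative settings that tested the gene, with differences of 2.25 to 2.45.

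The gene ost4, for a small subunit of the oligosaccharyltransferase that glycosylates proteins in the endoplasmic reticulum, also parted through dcr1ΔC33. Its levels were 13.27, 13.10 and 13.32 in dcr1-SHSS, 12.56, 12.65 and 12.21 in dcr1ΔC33, and 13.20, 13.17 and 13.06 in wild type. The dcr1ΔC33 arrays were lowest, and the dcr1-SHSS arrays overlapped wild type. The direct difference was 0.76 ± 0.12 (1.70-fold, adjusted p = 0.0385), and ost4 fell against wild type in dcr1ΔC33 (-0.67 ± 0.12, adjusted p = 0.00201). In gon7, named for a subunit of the KEOPS complex that modifies transfer RNA, dcr1-SHSS was the strain that stood apart. It lay at 11.96, 12.08 and 12.02 in dcr1-SHSS, 11.76, 11.63 and 11.62 in dcr1ΔC33, and 11.62, 11.69 and 11.67 in wild type. The dcr1-SHSS arrays were all above the others, with a direct difference of 0.35 ± 0.06 (adjusted p = 0.042) and a rise of 0.36 ± 0.06 against wild type (adjusted p = 0.000742).

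Of the 5 features that passed and were lower in dcr1-SHSS, SPAC212.04c changed the most; it is a gene of the clone SPAC212 at an end of chromosome I. Its levels were 7.50, 7.06 and 7.40 in dcr1-SHSS, 8.70, 8.24 and 8.69 in dcr1ΔC33, 7.89, 8.07 and 7.97 in dcr1Δ, and 8.62, 8.28 and 8.32 in wild type. The dcr1-SHSS arrays were lowest, the dcr1Δ arrays intermediate, and dcr1ΔC33 overlapped wild type. The direct difference was -1.22 ± 0.15 (2.34-fold lower in dcr1-SHSS, adjusted p = 0.0118), and it fell against wild type in dcr1-SHSS (-1.08 ± 0.15, adjusted p = 0.000402). Genes at the chromosome ends have near-identical copies whose probes may be shared, so the value may mix several of them. The nearby SPAC977.03 had a like difference, -1.26 ± 0.23, that did not pass (adjusted p = 0.0872).

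The flap endonuclease gene rad2, which acts on the ends of Okazaki fragments, was lower in dcr1-SHSS than in the other strains. It lay at 10.01, 9.95 and 10.02 in dcr1-SHSS, 10.41, 10.30 and 10.29 in dcr1ΔC33, and 10.44, 10.27 and 10.30 in wild type. The dcr1ΔC33 and wild-type arrays overlapped, and the direct difference was -0.34 ± 0.05 (1.27-fold lower, adjusted p = 0.0385). The gene mug62, named for its induction in meiosis, fell against wild type in both alleles but farther in dcr1-SHSS. It lay at 7.56, 7.53 and 7.55 in dcr1-SHSS, 7.85, 7.85 and 7.78 in dcr1ΔC33, and 7.94, 7.92 and 7.97 in wild type. The arrays of the 3 strains formed 3 steps without overlap. The direct difference was -0.28 ± 0.03 (1.21-fold lower, adjusted p = 0.0118), and the changes against wild type were -0.40 ± 0.03 in dcr1-SHSS and -0.12 ± 0.03 in dcr1ΔC33 (adjusted p = 1.32e-05 and 0.0188; the dcr1ΔC33 call was lost in 4 other settings, at 0.0616 to 0.151, the highest with an intensity trend).

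The remaining calls were the non-coding RNAs SPNCRNA.177 and prl4, both near the level of dcr1 in the deletion strain and so near background. SPNCRNA.177 lay at 5.41, 5.25 and 5.45 in dcr1-SHSS, 5.93, 5.92 and 5.91 in dcr1ΔC33, and 5.48, 5.54 and 5.60 in wild type. Its difference was -0.55 ± 0.07 (adjusted p = 0.0236), with the dcr1ΔC33 arrays alone on the high side. It is listed beside swi6, the gene of the heterochromatin protein HP1, which differed by -0.03 between the alleles and did not pass. For prl4 the levels were 4.64, 4.69 and 4.69 in dcr1-SHSS, 4.96, 5.00 and 4.97 in dcr1ΔC33, and 4.91, 4.84 and 4.74 in wild type. The alleles lay on opposite sides of wild type (-0.16 ± 0.04 in dcr1-SHSS and 0.15 ± 0.04 in dcr1ΔC33; adjusted p = 0.0157 and 0.0265, each lost without some single arrays), and the direct difference was -0.30 ± 0.04 (adjusted p = 0.0317).

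Set against wild type, the 8 calls had no common direction. In 3 of them (SPAC212.04c, rad2 and gon7) only dcr1-SHSS passed against wild type, in 3 (SPAC8C9.04, ost4 and SPNCRNA.177) only dcr1ΔC33, in mug62 both passed the same way and in prl4 both passed in opposite directions. Apart from SPAC8C9.04 each call was lost in at least 1 alternative setting: SPAC212.04c in 4 of 11 settings, mug62 in 5 of 11, SPNCRNA.177 in 8 of 11, ost4 in 9 of 12, rad2 and gon7 in 10 of 12 each, and prl4 in 11 of 11. The differences kept their direction in all of these settings.

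**Figure D3:**
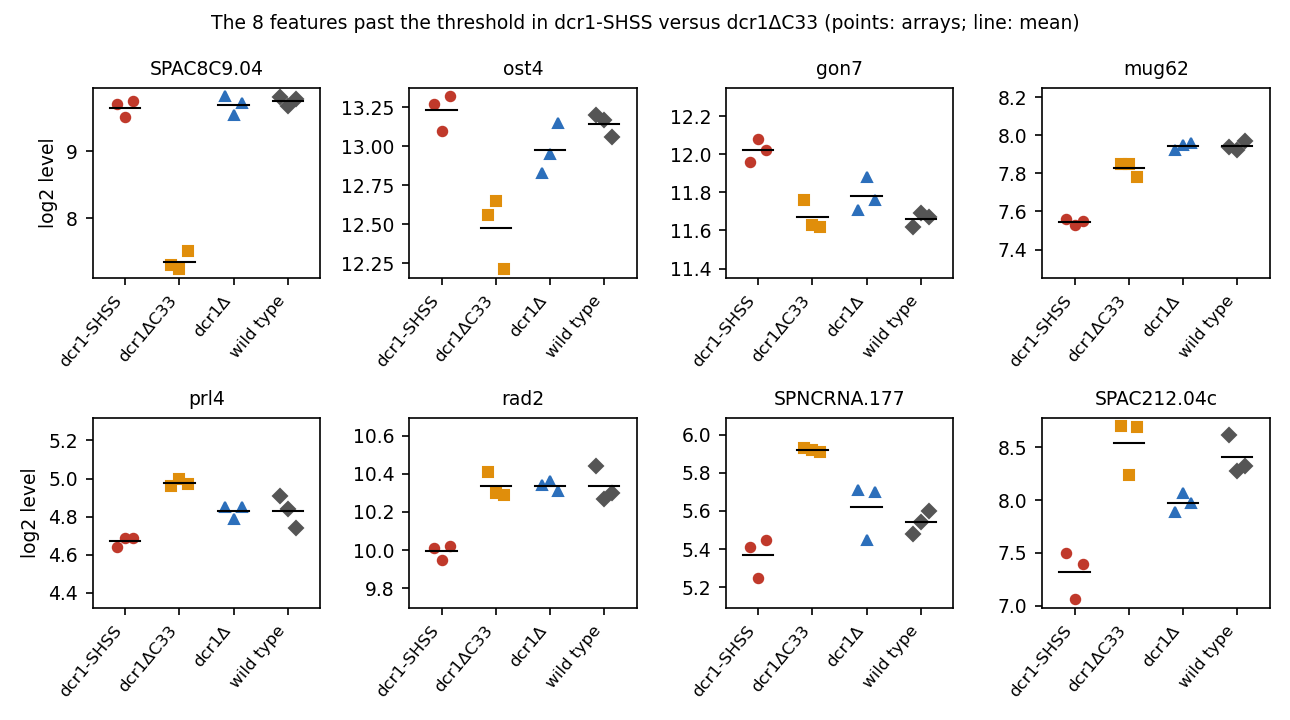
Log2 levels of the 8 features that passed between the alleles, with 1 point per array for dcr1-SHSS, dcr1ΔC33, dcr1Δ and wild type from left to right and a line at each mean. In SPAC8C9.04 the 3 dcr1ΔC33 arrays lie between 7.23 and 7.51, while all arrays of the other strains lie above 9.5; each panel has its own vertical scale.

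Size alone picked out another 20 features whose means differed by at least 1.5-fold without passing, 5 higher and 15 lower in dcr1-SHSS, named here after their values were seen. Of these 10 were non-coding RNAs, 6 were subtelomeric and 16 belonged to the dimmest quintile. The largest was SPNCRNA.126, at 7.77, 7.72 and 8.53 in dcr1-SHSS, 6.40, 6.84 and 6.29 in dcr1ΔC33, and 5.73, 6.85 and 5.67 in wild type. It differed by 1.5 ± 0.32 between the alleles (adjusted p = 0.0959) and rose against wild type in dcr1-SHSS (1.93 ± 0.32, adjusted p = 0.00123), with 0.42 ± 0.32 in dcr1ΔC33 (adjusted p = 0.321). The alleles did not overlap in it, but the spread within each was wide. SPNCRNA.136 had a difference of -1.45 ± 0.48 (adjusted p = 0.199), with dcr1-SHSS arrays from 5.31 to 7.03 and dcr1ΔC33 arrays from 7.33 to 7.73. SPNCRNA.78 and SPNCRNA.79 were higher in all dcr1-SHSS arrays, by 0.99 ± 0.32 and 0.85 ± 0.19 (adjusted p = 0.189 and 0.113).

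At the chromosome ends, of 150 subtelomeric genes, listed by the clone in their IDs, SPAC212.04c alone passed, beside 0.146% of all features, and 109 lay within 1.5-fold, beside 95.3% of all features. In the clone SPAC212, 6 of 7 features had lower means in dcr1-SHSS, with a median difference of -0.31. They included the helicase gene tlh1 at 7.51, 7.38 and 6.80 in dcr1-SHSS and 8.29, 7.49 and 8.59 in dcr1ΔC33, arrays that overlapped between the alleles (-0.89 ± 0.37, adjusted p = 0.288). All 7 features of SPAC212 were dim, at mean levels of 5.63 to 8.50. The dimmest quintile had a median of -0.11 itself, and -0.002 after quantile normalization. Clones at ends of chromosome II had medians like that of SPAC212, -0.24 for SPBC1348 (7 features) and -0.31 for SPBCPT2R1 (6 features). In contrast, SPAC869 (11 features) and SPAC750 (3 features) of chromosome I had 0.06 and 0.34. The clone medians were not computed after quantile normalization. Over all 150 the median was -0.05, beside -0.02 for all features, and it was 0.00 after quantile normalization. No run of 3 or more neighbouring features passed anywhere in the genome. With 8 calls among 5483 features such a run was unlikely, so its absence says nothing about stretches of the genome. At an unadjusted p under 0.05 there were 7 such runs, each of 3 features lower in dcr1-SHSS, and 1 of them held mug62 between alp41 (-0.13) and rdh54 (-0.17). With 599 features lower at that p some runs arise by scatter alone. How many was not computed, so nothing is read from the 7.

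Features far from wild type in both alleles were named as the 8 highest and 5 lowest by the smaller of the 2 changes, among those that passed against wild type in both. That choice leaves out features on which the alleles differ, so their changes and their nearness between the alleles are a description, and nothing is read from the absence of direct calls among them. SPNCRNA.234, a non-coding RNA in the gap of protein-coding genes that holds a centromere, lay at 12.12, 12.14 and 12.27 in dcr1-SHSS, 12.32, 12.42 and 12.33 in dcr1ΔC33, 12.23, 12.22 and 11.90 in dcr1Δ, and 8.03, 6.80 and 7.82 in wild type. The cation-transporting ATPase gene cta3 lay at 12.31, 12.30 and 12.77 in dcr1-SHSS, 12.29, 12.19 and 12.25 in dcr1ΔC33, 10.69, 10.84 and 11.26 in dcr1Δ, and 8.27, 8.0 and 8.18 in wild type. In both, all 6 arrays of the alleles were far above wild type. In cta3 they were also above all dcr1Δ arrays, whereas in SPNCRNA.234 the dcr1Δ arrays overlapped those of dcr1-SHSS. The changes against wild type were 4.63 and 4.31 in dcr1-SHSS, and 4.81 and 4.09 in dcr1ΔC33. The direct differences were -0.18 ± 0.25 (95% interval -0.73 to 0.37) and 0.22 ± 0.15 (-0.12 to 0.56), neither past the threshold (adjusted p = 0.761 and 0.512).

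Direct differences of the other protein-coding genes that rose ran from -0.18 to 0.15. The ferric reductase gene frp2 lay at 12.10, 12.05 and 12.07 in dcr1-SHSS, 11.94, 11.98 and 11.97 in dcr1ΔC33, and 9.03, 9.0 and 9.19 in wild type, a direct difference of 0.11 ± 0.06 (-0.01 to 0.24). The uridine ribohydrolase gene urh1 differed by -0.02 ± 0.11 (-0.27 to 0.23), with 12.27, 12.31 and 12.06 in dcr1-SHSS, 12.23, 12.08 and 12.40 in dcr1ΔC33, and 9.67, 9.29 and 9.69 in wild type. In urh1 the alleles overlapped fully at 2.67 (dcr1-SHSS) and 2.69 (dcr1ΔC33) log2 units above wild type. The subtelomeric SPAC186.02c differed by 0.15 ± 0.18 (-0.25 to 0.55) after changes of 3.04 in dcr1-SHSS and 2.89 in dcr1ΔC33. For ura4, an enzyme gene of pyrimidine synthesis that is widely used as a strain marker, the changes were 2.75 in dcr1-SHSS and 2.93 in dcr1ΔC33, with a direct difference of -0.18 ± 0.10 (-0.40 to 0.05). In dcr1Δ ura4 rose farther, by 3.22 (adjusted p = 2.25e-08). The rises in dcr1Δ were smaller than in the alleles for frp2, urh1 and SPAC186.02c, at 1.76, 1.15 and 1.80. The labels do not say whether the strains differ in a ura4 allele or reporter.

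Shared decreases were smaller. The flocculin gene pfl7 lay at 8.57, 9.35 and 9.20 in dcr1-SHSS, 9.42, 9.26 and 9.39 in dcr1ΔC33, and 10.31, 10.35 and 10.28 in wild type. A single dcr1-SHSS array was lower than the rest, and the direct difference was -0.32 ± 0.15 (adjusted p = 0.349). The pseudogene SPBPB10D8.03 had -1.19 in dcr1-SHSS and -0.81 in dcr1ΔC33, and its arrays did not overlap between the alleles (7.25 to 7.46 and 7.61 to 7.93), although the difference of -0.38 ± 0.09 did not pass (adjusted p = 0.126). The ribosomal protein gene rps2202, cbp7 and thi201 changed by -0.60, -0.67 and -0.75 in dcr1-SHSS and by -0.62, -0.62 and -0.59 in dcr1ΔC33, with direct differences of 0.02, -0.05 and -0.15.

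**Figure D4:**
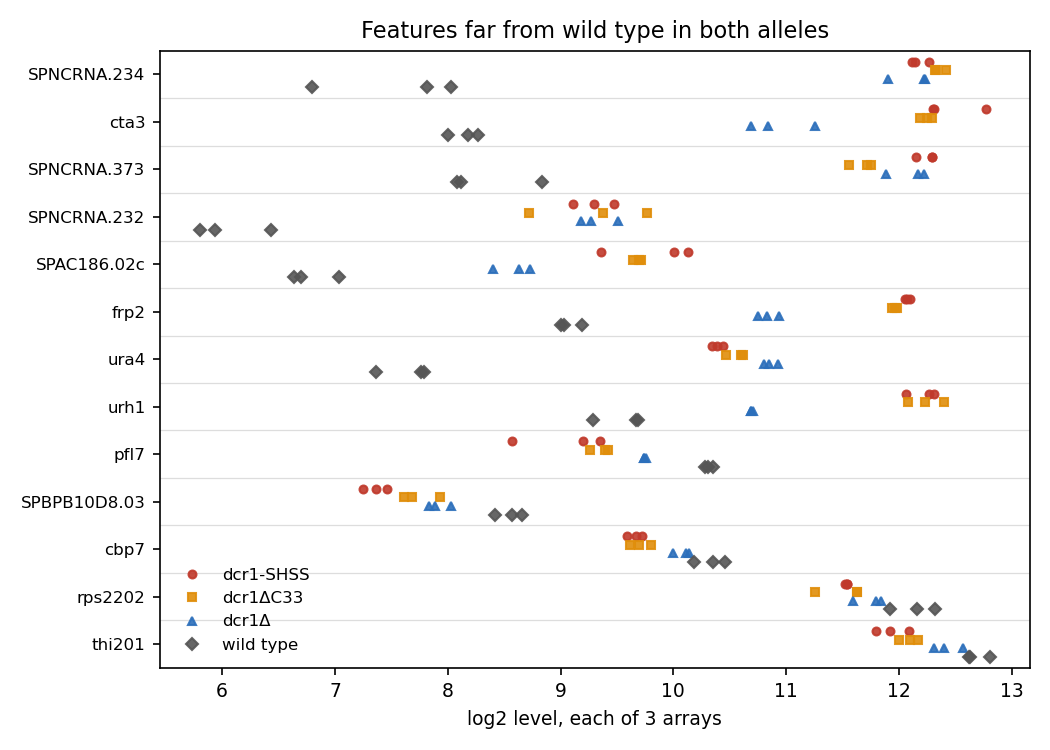
Log2 levels of the 13 features named for a change against wild type in both alleles, with 1 symbol per array and, within each band from top to bottom, dcr1-SHSS, dcr1ΔC33, dcr1Δ and wild type. All 6 arrays of the alleles lie on one side of wild type in every band, which the choice of features fixed, and it also favoured features on which the alleles are alike.

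Of the centromeric transcripts, the best known targets of Dicer in this yeast, 4 of 13 non-coding RNAs in the 3 gaps that hold the centromeres rose against wild type in each allele. Of all features 15% rose in dcr1-SHSS and 14.7% in dcr1ΔC33. None of the 13 passed between the alleles, which for 13 features is near the 0.146% of all features. Their likeness was resolved for fewer of them: 7 of 13 had an interval within 1.5-fold, beside 95.3% of all features. Of these 7, SPNCRNA.231 and SPNCRNA.232 were among the 4 that rose, and the other 5 were dim. SPNCRNA.231 lay at 9.38, 9.48 and 9.39 in dcr1-SHSS, 9.50, 9.08 and 9.44 in dcr1ΔC33, and 6.75, 6.96 and 6.95 in wild type, with a direct difference of 0.08 ± 0.11 (-0.17 to 0.32). SPNCRNA.232 lay at 9.30, 9.11 and 9.47 in dcr1-SHSS, 9.38, 8.72 and 9.77 in dcr1ΔC33, and 5.80, 5.94 and 6.43 in wild type, which is close to background. These 2 overlapped between the alleles. In SPNCRNA.373 the arrays did not overlap, with 12.15, 12.29 and 12.29 in dcr1-SHSS above 11.72, 11.75 and 11.56 in dcr1ΔC33, and 8.12, 8.08 and 8.84 in wild type. Its direct difference of 0.57 ± 0.18 (0.18 to 0.95) did not pass (adjusted p = 0.178). The arrays also did not overlap in SPNCRNA.234, whose values stand above, and in the dim SPNCRNA.374 (-0.09, adjusted p = 0.595), both lower in dcr1-SHSS. Besides SPNCRNA.231, SPNCRNA.232, SPNCRNA.234 and SPNCRNA.373, the other 9 did not pass against wild type in either allele. Of these 9, SPNCRNA.481 passed against wild type in dcr1Δ (0.79 ± 0.16, adjusted p = 0.0238), at levels near background. SPNCRNA.233, SPNCRNA.359, SPNCRNA.369, SPNCRNA.370, SPNCRNA.374, SPNCRNA.480 and SPNCRNA.481 were dim, with all arrays of the alleles between 4.44 and 6.10. SPNCRNA.364 and SPNCRNA.366 varied by more than 1 log2 unit within at least 1 strain.

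A set chosen on dcr1Δ against wild type was also followed. Against wild type 172 features passed in dcr1Δ (3.14%), 154 higher and 18 lower. The count was 295 with the replicate number as a block, 82 without dcr1Δ array 2, 95 without dcr1Δ array 3 and 96 without wild-type array 2. Of the 172, none passed between dcr1-SHSS and dcr1ΔC33, near the 0.146% of all features. An unadjusted p under 0.05 was found for 37 of them (21.5%, with 26 higher and 11 lower in dcr1-SHSS), beside 15.4% of all features with 248 higher and 599 lower. For 154 of the 172 (89.5%) the interval lay within 1.5-fold, beside 95.3% of all features. Their direct differences ran from -0.38 at SPBPB10D8.03 to 0.57 at SPNCRNA.373, with a median of 0.03. Changes computed with no array in common were also compared: across the 5483 features, dcr1-SHSS minus dcr1Δ and dcr1ΔC33 minus wild type had Pearson's r = 0.64 and Spearman's rho = 0.543, and dcr1-SHSS minus wild type and dcr1ΔC33 minus dcr1Δ had 0.683 and 0.728. Features are not independent replicates and share probes, level and array scaling, so these are descriptions.

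By gene list, the core environmental stress response had the highest median change against wild type in both alleles. Member counts of the lists are to be read beside the shares of all features: 15% rose and 25.8% fell in dcr1-SHSS, and 14.7% rose and 17.6% fell in dcr1ΔC33. Between the alleles 0.146% of all features passed, so the lack of a call in a list this short is near that share. Of 27 genes of the core environmental stress response, 20 rose and 1 fell in dcr1-SHSS, and 17 rose and 1 fell in dcr1ΔC33, with median changes of 0.58 and 0.40. None passed between the alleles and 24 lay within 1.5-fold, beside 95.3% of all features. The member with the smallest direct p, the small heat shock gene hsp9, lay at 14.53, 14.59 and 14.50 in dcr1-SHSS, 14.32, 14.17 and 14.35 in dcr1ΔC33, and 13.66, 13.67 and 13.82 in wild type. Its arrays formed 3 steps, but the direct difference of 0.26 ± 0.07 did not pass (adjusted p = 0.132). Of 18 peroxide defence genes 12 rose in dcr1-SHSS and 8 in dcr1ΔC33, with 1 lower in each and none past the threshold between the alleles. The glutathione peroxidase gene gpx1 rose by 0.58 ± 0.06 in dcr1-SHSS and 0.37 ± 0.06 in dcr1ΔC33, and differed by 0.21 ± 0.06 between them (adjusted p = 0.141). Of 17 heat shock and chaperone genes 5 rose and 1 fell in each allele, with none between them. The stress list shares members with the peroxide list, such as gpx1, ctt1 and srx1, and with the heat shock list, such as hsp9 and hsp16. Their counts are therefore not separate results.

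No gene of the 5 transport and nutrient lists passed between the alleles, which for lists this short is near the 0.146% of all features. Likeness was not resolved for all of them. The interval lay within 1.5-fold for 12 of 15 iron, 12 of 15 hexose, 11 of 15 nitrogen, 7 of 7 phosphate and 8 of 10 pyrimidine genes, beside 95.3% of all features. Against wild type, where 15% of all features rose and 25.8% fell in dcr1-SHSS, and 14.7% and 17.6% in dcr1ΔC33, the iron list was the one of these 5 with the highest median change (0.27 in dcr1-SHSS and 0.15 in dcr1ΔC33). Of 15 iron acquisition genes 6 rose and 4 fell in dcr1-SHSS, and 5 rose and 1 fell in dcr1ΔC33. The siderophore transporter gene str2 rose by 0.42 ± 0.04 in dcr1-SHSS and 0.25 ± 0.04 in dcr1ΔC33, a direct difference of 0.17 ± 0.04 (adjusted p = 0.126). Of 15 hexose transport and glucose repression genes 5 rose in dcr1-SHSS and 4 in dcr1ΔC33. The hexose transporter gene ght7 had a direct difference of -0.37 ± 0.08 (adjusted p = 0.113), and its arrays did not overlap between the alleles. Of 15 nitrogen response genes 3 rose in dcr1-SHSS and 4 in dcr1ΔC33, and none fell in either allele. The ammonium transporter gene amt3 lay at 7.88, 8.13 and 8.14 in dcr1-SHSS, 8.71, 8.30 and 8.77 in dcr1ΔC33, and 8.03, 7.85 and 8.15 in wild type. It rose in dcr1ΔC33 (0.59 ± 0.14, adjusted p = 0.00934; 0.0599 after quantile normalization) and the alleles did not overlap, but the difference of -0.55 ± 0.14 did not pass (adjusted p = 0.132). Of 7 phosphate acquisition genes 1 rose and 3 fell in each allele, and the phosphate-response regulator gene pho7 differed by 0.09 ± 0.04 between them. Of 10 genes of pyrimidine synthesis and the uracil response 4 rose and 4 fell in dcr1-SHSS, and 4 rose and 3 fell in dcr1ΔC33. The orotate phosphoribosyltransferase gene ura5 fell in both (-0.36 ± 0.06 in dcr1-SHSS and -0.18 ± 0.06 in dcr1ΔC33), and the second call was lost without some single arrays (adjusted p up to 0.132).

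Among genes of growth and the cell cycle decreases were small in both alleles, and their shares compare with 25.8% of all features lower in dcr1-SHSS and 17.6% in dcr1ΔC33. Of 129 genes with ribosomal protein symbols 71 fell and none rose in dcr1-SHSS, and 49 fell and 1 rose in dcr1ΔC33, with medians of -0.13 and -0.10. All 129 lay within 1.5-fold between the alleles, beside 95.3% of all features. After quantile normalization 68 fell in dcr1-SHSS and 28 in dcr1ΔC33. Of 22 ribosome biogenesis genes 11 fell in dcr1-SHSS and 10 in dcr1ΔC33, and nhp2, of the RNA-modifying H/ACA particles, had the smallest direct p (0.22 ± 0.06, adjusted p = 0.137). Of 26 nuclear pore and transport genes 12 fell and 2 rose in dcr1-SHSS, and 13 fell and 3 rose in dcr1ΔC33. Of 14 G1/S genes 8 fell and 1 rose in dcr1-SHSS and 5 fell in dcr1ΔC33; cdt2, an adaptor gene of a ubiquitin ligase, was the member that rose in dcr1-SHSS (0.23 ± 0.04, adjusted p = 0.00289; 0.06 ± 0.04 in dcr1ΔC33). Of 11 histone genes 2 rose in each allele, and 1 fell in dcr1ΔC33, the H2A gene hta1 (-0.09 ± 0.03, adjusted p = 0.0398), a call that most other settings lost (adjusted p = 0.627 after quantile normalization). Of 36 genes of purine and amino acid synthesis 15 fell and 4 rose in dcr1-SHSS, and 11 fell and 1 rose in dcr1ΔC33 (6 and 3 after quantile normalization). All 36 lay within 1.5-fold between the alleles, among them ade1 (-0.16 ± 0.03, adjusted p = 0.0946).

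The RNA interference and heterochromatin factors themselves were close between the alleles, as were most features. All 30 lay within 1.5-fold, beside 95.3% of all features, with direct differences from -0.20 to 0.08. None passed the threshold, near the 0.146% of all features. Against wild type 9 fell and 1 rose in dcr1-SHSS, beside 25.8% and 15% of all features. In dcr1ΔC33 2 fell and 4 rose, beside 17.6% and 14.7%. After quantile normalization these counts were 8 and 1 in dcr1-SHSS, and 9 and 2 in dcr1ΔC33, so that the split between the alleles moved with the scaling. The small-RNA exonuclease gene eri1 lay at 8.86, 8.80 and 8.91 in dcr1-SHSS, 9.02, 9.02 and 9.08 in dcr1ΔC33, and 9.05, 9.02 and 9.07 in wild type. It fell in dcr1-SHSS (-0.19 ± 0.04, adjusted p = 0.00536), and the direct difference of -0.19 ± 0.04 did not pass (adjusted p = 0.113).

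Among lists of sexual differentiation the shares that rose lay near those of all features (15% in dcr1-SHSS and 14.7% in dcr1ΔC33) for the mating and the meiotic genes, and the shares that fell at or under theirs (25.8% and 17.6%). Of 21 mating and pheromone genes 3 rose and 3 fell in dcr1-SHSS, and 3 rose and 2 fell in dcr1ΔC33. The M-factor precursor gene mfm3 lay at 8.29, 8.15 and 8.01 in dcr1-SHSS, 8.75, 8.66 and 8.76 in dcr1ΔC33, and 8.40, 7.73 and 8.15 in wild type. It rose in dcr1ΔC33 (0.63 ± 0.15, adjusted p = 0.0111), with a direct difference of -0.58 ± 0.15 that did not pass (adjusted p = 0.141). Of 20 meiotic genes and Mmi1 factors 3 rose and 2 fell in dcr1-SHSS and 3 rose in dcr1ΔC33. The meiotic kinase gene spo4 fell in dcr1-SHSS (-0.44 ± 0.06, adjusted p = 0.000267) and had a direct difference of -0.31 ± 0.06 (adjusted p = 0.0872). Of 115 genes with mug or meu symbols, which were named for induction in meiosis, 27 rose and 21 fell in dcr1-SHSS, and 28 rose and 14 fell in dcr1ΔC33 (24 and 22 after quantile normalization). Between the alleles mug62 alone passed and 100 of them lay within 1.5-fold, beside 0.146% and 95.3% of all features.

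Non-coding RNAs held 84 and subtelomeric genes 41 of the 258 intervals beyond 1.5-fold. The shares of all features to set beside the following counts are 15% higher and 25.8% lower in dcr1-SHSS, and 14.7% higher and 17.6% lower in dcr1ΔC33. Of 474 features with IDs starting SPNCRNA, 98 rose and 38 fell in dcr1-SHSS, and 116 rose and 11 fell in dcr1ΔC33. SPNCRNA.177 and prl4 passed between the alleles, and 390 lay within 1.5-fold, beside 0.146% and 95.3% of all features. After quantile normalization 91 rose and 66 fell in dcr1-SHSS, 61 rose and 56 fell in dcr1ΔC33, and none passed between the alleles. Of 24 wtf genes, a family of meiotic drivers with closely similar copies, 14 rose and none fell in each allele, and 21 lay within 1.5-fold. After quantile normalization 14 rose in dcr1-SHSS and 9 in dcr1ΔC33. Their member wtf16 rose by 0.39 ± 0.06 in dcr1-SHSS and 0.18 ± 0.06 in dcr1ΔC33 (adjusted p = 0.0436; up to 0.209 in other settings), with a direct difference of 0.22 ± 0.06 (adjusted p = 0.141). Of 150 subtelomeric genes 43 rose and 21 fell in dcr1-SHSS, and 51 rose and 10 fell in dcr1ΔC33. Of 29 pseudogenes 11 rose and 5 fell in dcr1-SHSS, and 12 rose and 2 fell in dcr1ΔC33. SPAC212.07c, beside SPAC212.04c, had the smallest direct p of these (-0.31 ± 0.06, adjusted p = 0.0919).

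**Figure D5:**
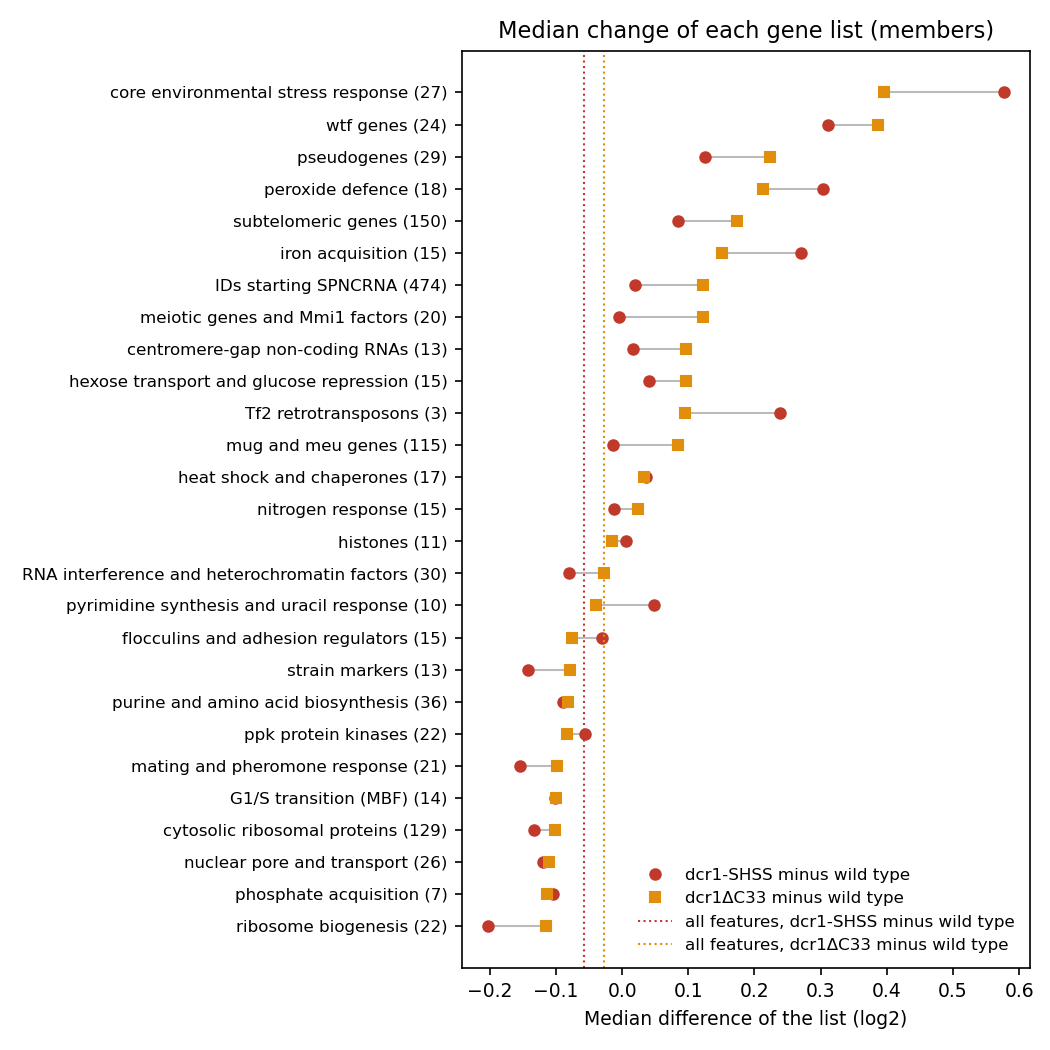
The median difference from wild type (log2) of each gene list is shown for dcr1-SHSS (circles) and dcr1ΔC33 (squares), with the number of members in parentheses and dotted lines at the medians of all features, -0.06 and -0.03. Stress genes have the highest medians in both alleles, 0.58 and 0.40, and ribosome biogenesis genes the lowest, -0.20 and -0.12; after quantile normalization the mating list is lowest, at -0.21 and -0.19.

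Shorter lists without a direct call were 15 flocculins and adhesion regulators (1 higher and 4 lower in each allele, with mam3 closest to the threshold at 0.10 ± 0.04, adjusted p = 0.232), 13 genes used as strain markers (1 higher and 7 lower in dcr1-SHSS, 1 and 4 in dcr1ΔC33), 22 ppk protein kinase genes (5 higher and 4 lower, against 3 and 5) and 3 Tf2 retrotransposons (1 higher in dcr1-SHSS, none in dcr1ΔC33). These counts are to be read beside 15% of all features higher and 25.8% lower in dcr1-SHSS, and 14.7% and 17.6% in dcr1ΔC33. The lack of direct calls is near the 0.146% of all features. The marker gene his5, of histidine synthesis, fell in dcr1-SHSS (-0.45 ± 0.07, adjusted p = 0.00121) and differed by -0.25 ± 0.07 between the alleles (adjusted p = 0.162). The kinase gene ppk8 rose in both, by 0.63 ± 0.08 in dcr1-SHSS and 0.38 ± 0.08 in dcr1ΔC33, with a direct difference of 0.25 ± 0.08 (adjusted p = 0.186).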

How the data were processed

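The authors deposited log2 levels, 1 per systematic ID and array. Per the submitters' processing notes they used R 2.10.0 and affy; how background, scaling and probes were handled, and which annotation and build were used, is not given in the sources here. Dim features may hold background, and near-identical copies and opposite strands cannot be told apart. Array medians lay between 11.37 and 11.42, and replicates within a strain had a median SD of 0.0653 in dcr1-SHSS, 0.0538 in dcr1ΔC33, 0.0697 in dcr1Δ and 0.0715 in wild type; the number of arrays limits the precision. No detection calls were used.

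The deposited levels entered limma 3.58.1 (R 4.3.3): 4 groups over 12 arrays, eBayes moderation with 2.44 prior and 8 residual degrees of freedom, 2-sided tests, Benjamini-Hochberg adjustment over 5483 features and a threshold of 0.05. On simulated data with 200 changed features it recovered 47% of log2 changes of 0.25, 89.5% of 0.5 and 99% of 1. The simulated noise was independent, without shifts between arrays or with level and without deviations shared by replicate number, so recovery in the real data may be lower. Recovery with as few calls as the 8 between the alleles was not tested. Between dcr1-SHSS and dcr1ΔC33, 6 features differed by at least 2-fold and 2 of these passed. Of the IDs, 5357 matched the RefSeq table of ASM294v3 (5337 by locus tag, 20 by synonym), which gave names and neighbours only.

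Features were named by a rule: dcr1; up to 12 direct calls each way; the 8 highest and 5 lowest changes shared against wild type; the centromere-gap RNAs; and per list up to 3 direct calls or the smallest p. The comparison, the lists and the rule were chosen with earlier results of these data known. Same-numbered arrays deviated together for dcr1Δ and wild type (0.151, 0.354 and 0.252) and dcr1ΔC33 and wild type (0.177, 0.388 and 0.223), which was taken as pairing, from the data and not from the labels. For dcr1-SHSS and wild type the correlations were 0.0931, 0.284 and 0.266, the first under the set minimum of 0.1. The main fit used no replicate block for any comparison.

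Alternatives were quantile normalization, median centring, no dimmest 20 percent of features, only the compared strains, an intensity trend with robust moderation, a replicate block, each array left out, an adjusted p of 0.01, and a change of at least 1.5-fold.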

Additional observations from a re-analysis of the deposited data

Results flagged for a closer look

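In 8 features the change against wild type differed between the alleles by the direct test of dcr1-SHSS minus dcr1ΔC33. The differences were 2.31 for SPAC8C9.04, 0.76 for ost4, 0.35 for gon7, -1.22 for SPAC212.04c, -0.55 for SPNCRNA.177, -0.34 for rad2, -0.30 for prl4 and -0.28 for mug62 (log2, n = 3 per strain). Their highest adjusted p over the alternative settings was 0.000857 for SPAC8C9.04, 0.117 for ost4, 0.179 for gon7, 0.0937 for SPAC212.04c, 0.113 for SPNCRNA.177, 0.142 for rad2, 0.233 for prl4 and 0.137 for mug62. The part of strain background, probe content or array scaling in them was not tested.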

How the results depend on the processing

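The 8 direct calls became 2 after quantile normalization (SPAC8C9.04 and SPAC212.04c), 1 in a fit to the 2 alleles alone, 4 with an intensity trend and robust moderation, 1 at an adjusted p of 0.01 and 3 at a change of at least 1.5-fold. Without the lowest 20 percent of features there were 0 in limma, with 614 at an unadjusted p under 0.05; of the 8, that fit tested only ost4, rad2 and gon7. Leaving out 1 array of an allele gave 1 to 7 calls: 3 without dcr1-SHSS array 1, 1 without dcr1-SHSS array 2 or dcr1ΔC33 array 1, and 2 without dcr1ΔC33 array 3. Leaving out 1 array of dcr1Δ or wild type, chosen after seeing the data, gave 5 to 11, with 5 without wild-type array 3. Calls that passed in exactly 1 allele against wild type went to 2 (quantile), 0 (lowest 20 percent left out), 1 (2 alleles alone) and 1 to 9 (arrays left out), in place of 6. List members called went to 1, 0 and 0 in the same order, 1 with the trend and 0 to 4 with arrays left out, in place of 4. The median distance between the alleles, 0.0853, was 0.0761 after quantile normalization and 0.0736 without the lowest 20 percent. Features within 1.5-fold numbered 5099 to 5157 with arrays left out. Against wild type, dcr1ΔC33 had 1178 to 1483 calls with arrays left out (1178 without its array 3), dcr1-SHSS 1729 to 2001, and dcr1Δ 82 to 168, 73 in a fit to its 2 strains alone and 295 with the replicate block. With dcr1ΔC33 and wild type, whose numbers were taken as pairing, the replicate block gave 2267 calls in place of 1771; of the features named it added mam3, his5 and SPAC212.07c and lost none. For dcr1-SHSS against wild type the replicate block gave 2653 calls in place of 2234. Between the alleles the replicate numbers were not treated as pairing (correlations of 0.0206, 0.351 and 0.139). There the replicate block gave 8 calls, of which 5 were the same features, while gon7, ost4 and prl4 were lost and spn5, SPBC365.04c and ppn1 gained. Of the calls named against wild type, those lost were 2 with arrays left out and 3 in other settings for dcr1-SHSS, and 23 and 11 for dcr1ΔC33 (dcr1, hta1, mug62, prl4, ura5, wtf16 and amt3). No called value reversed. The causes were not tested.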
